A study of Homo sapiens with 10 samples.

Results

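The 30 genes described here encode enzymes and regulators of cholesterol and fatty acid synthesis, and they were followed in BEAS2B cells, an immortalized human bronchial epithelial line. They were chosen by gene symbol for their known role in these pathways, by a rule that uses no measured value. The list was nevertheless drawn up with earlier results of these data known, and some genes of the pathways are not among the 30. All 30 were present among the 52402 gene symbols of the count files, and all 30 passed the filter on low counts, which kept 14884 genes. By role, 7 belong to the mevalonate steps, 11 to the squalene and sterol steps, 5 to the proteins that control the pathways, 1 (STARD4) to sterol transport and 6 to fatty acid synthesis.

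Total mRNA was sequenced from 5 groups of 2 libraries each, to learn how 3 miRNAs alter gene expression in these cells. Cells of every group were transfected, and RNA was collected after 48 h. The groups received a scrambled control miRNA (miRcontrol), a miR-3124-5p mimic (miR3124_mimic), a miR-200b-3p mimic (miR200b_mimic) or a miR-92b inhibitor (miR92b_inhibitor), each at 50 nM, or the latter 3 together (the 3-miRNA mixed group, below also the mixture). A mimic adds an miRNA to the cell, and an inhibitor is an oligonucleotide meant to block the cell's own copy. The amount of each agent in the mixed group is not stated. No control inhibitor and no untransfected cells are among the groups, so a response to blocking miR-92b and a response to the inhibitor type of oligonucleotide cannot be told apart. Nothing states that the 2 libraries of a group came from separate transfections, so the p-values measure only the spread between these libraries, which may be technical. Each library held between 13587666 and 18503890 counts, and 28 of the 30 genes had at least 100 counts in every library. The exceptions were TM7SF2 and ACACA. In bulk RNA, fewer cells that express a gene and less RNA per cell cannot be told apart.

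Cells build cholesterol from acetyl-CoA by way of mevalonate, the isoprenoid pyrophosphates and squalene, which is closed into a ring and trimmed step by step. The same acetyl-CoA is joined into palmitate by fatty acid synthase and then lengthened and desaturated. SREBF1 and SREBF2 encode the sterol regulatory element-binding proteins (SREBPs), membrane-bound transcription factors that switch these genes on. When sterols are plentiful, the escort protein SCAP and its anchors INSIG1 and INSIG2 hold the SREBPs in the endoplasmic reticulum, and when sterols are scarce the SREBPs are cut free and enter the nucleus. In the airway, these lipids supply membranes and the lipid part of surfactant.

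The sequences of the miRNAs set the base pairing that a mimic could add and that the inhibitor could take away. Their mature forms are therefore shown first, from RefSeq (GRCh38.p14), 5′ to 3′, with the seed (bases 2 to 8) in capitals. All 3 miRNA genes lie on the plus strand of chromosome 1. The labels of the libraries name only miR-92b for the inhibitor, so both of its arms are given.
hsa-miR-3124-5p (chr1:248826383-248826403): uUCGCGGGcgaaggcaaaguc
hsa-miR-200b-3p (chr1:1167160-1167181): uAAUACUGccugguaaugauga
hsa-miR-92b-5p (chr1:155195196-155195217): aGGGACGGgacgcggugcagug
hsa-miR-92b-3p (chr1:155195237-155195258): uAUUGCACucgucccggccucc

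The 4 seeds are all different. The 7-base complement of each seed was searched on the transcript strand in 3′UTRs, taking for each gene its longest coding transcript (GENCODE v29, GRCh38). CCCGCGA, which pairs with the seed of miR-3124-5p, was in none of the 30 genes and in 0.619% of 19058 genes with a 3′UTR. CCGTCCC, for miR-92b-5p, was also in none of the 30, against 3.76% of all genes. CAGTATT, for miR-200b-3p, was in 3 of the 30 (ACACA, SCD and FADS1), against 16.0% of all genes. GTGCAAT, for miR-92b-3p, was in 3 of the 30 (INSIG1, ELOVL6 and SCD), against 10.9%. The words in SCD, FADS1 and INSIG1 are shown because these genes recur in the results, with the word in capitals and its flanks in lower case.
SCD, miR-200b-3p word (chr10:100361046-100361072, plus strand): cattccagtaCAGTATTcttttaaaat
SCD, miR-92b-3p word (chr10:100362978-100363004, plus strand): tcagctggcaGTGCAATgcttgtagaa
FADS1, miR-200b-3p word (chr11:61799687-61799713, minus strand): ggcccaatatCAGTATTctttttgtgt
INSIG1, miR-92b-3p word (chr7:155309286-155309312, plus strand): taaacttcaaGTGCAATgtatatgaaa

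These matches describe letters only. SCD was the only gene of the 30 with a word for both miR-200b-3p and miR-92b-3p.

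The SREBPs act through promoter elements, so promoter letters were also counted. RefSeq promoter windows (GRCh38.p14, 250 bases before the start and 50 from it) were matched by symbol for 26 of the 30 genes, giving 35 windows. ACAT2, FDFT1, SQLE and FASN had no entry. The core of the sterol regulatory element was searched as TCACNCCAC on both strands and was in 1 of the 35 windows, that of SREBF2, against 1.13% of 35114 promoters. CCAAT, the box bound by NF-Y, was in 22 of the 35 windows (62.9%), which belong to 19 genes, against 34.6% of all promoters. GGGCGG, the box bound by Sp1, was in 31 windows (88.6%), of 25 genes, against 45.0%. The core in SREBF2 began 133 bases before the start, and the nearest CCAAT lay 27 bases from it. That window follows, together with a CCAAT window from before the start of 6 genes with large falls in miR92b_inhibitor, each in the direction of the gene with the box in capitals (ATTGG is the box on the opposite strand).
SREBF2 (chr22:41832952-41833000, plus strand): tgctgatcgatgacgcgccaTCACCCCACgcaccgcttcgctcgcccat
SCD (chr10:100347022-100347076, plus strand): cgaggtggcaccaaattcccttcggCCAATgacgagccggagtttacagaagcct
STARD4 (chr5:111512667-111512721, minus strand): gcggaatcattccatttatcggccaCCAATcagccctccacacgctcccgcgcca
INSIG1 (chr7:155297683-155297737, plus strand): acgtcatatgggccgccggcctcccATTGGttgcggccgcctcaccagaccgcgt
MVD (chr16:88663221-88663275, minus strand): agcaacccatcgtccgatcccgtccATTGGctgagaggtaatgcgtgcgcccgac
HMGCS1 (chr5:43313538-43313592, minus strand): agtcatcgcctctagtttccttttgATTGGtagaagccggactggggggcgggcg
MSMO1 (chr4:165327459-165327513, plus strand): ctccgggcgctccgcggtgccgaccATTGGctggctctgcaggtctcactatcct

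Genes with and without CCAAT in their windows both included large and small changes in miR92b_inhibitor. Among those with it were SCD (-1.49 on the log2 scale), FADS2 (-1.32), FDPS (-0.38) and HSD17B7 (-0.27, not passing the test). Among those without it were SREBF1 (-1.02), FADS1 (-0.86), SCAP (-0.19) and PMVK (-0.01, not passing the test). Whether the changes differ with the box was not tested. SREBF2, with the sterol core, changed by -0.75, and the 25 genes with a window but no core had a median of -0.71. A window without the letters says only that these letters are not in it.

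A level is the normalized CPM of a gene (its counts scaled to the library size), and changes are given as the log2 fold change ± standard error from edgeR's quasi-likelihood test, with p-values adjusted by Benjamini-Hochberg over all 14884 genes. A gene is said to have risen or fallen when its adjusted p was under 0.05. To set genes side by side, levels were divided by the length of all annotated exons of a gene merged, so the order also depends on the annotation. Per kilobase of such exon, SCD had the highest level of the 30 in miRcontrol (151.2 CPM per kb). FASN (73.7), NSDHL (42.4), CYP51A1 (41.4) and FDFT1 (41.0) followed. The lowest were HSD17B7 (3.00), TM7SF2 (2.76), LSS (2.73) and ACACA (0.261). ACACA was listed under 2 entries with 8 to 35 counts per library in either, so its values are uncertain.

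The cells carried the cytokeratins of an epithelial line, with KRT7, KRT8 and KRT18 above 600 CPM in miRcontrol, but EPCAM and CDH1 stood below 0.5 CPM there and KRT5 and KRT14 at or near 0. The 8 airway epithelial markers summed to 2268 and 2220 CPM in the miRcontrol libraries and 2188 and 2098 in miR92b_inhibitor. The sums were 4109 and 4081 in the mixture, 2774 and 2781 in miR3124_mimic and 4188 and 4270 in miR200b_mimic. These sums were mostly KRT7, KRT8 and KRT18, and other members moved differently. KRT19 had 8.47 and 7.94 CPM in miRcontrol, 0.615 and 0.905 in miR3124_mimic and 2.49 and 2.74 in the mixture. In miR200b_mimic KRT19 had 13.8 and 15.1 CPM, EPCAM 10.2 and 10.1 and CDH1 10.9 and 9.03. The 5 mesenchymal markers summed to 7996 and 7978 CPM in miRcontrol, 7608 and 7459 in miR92b_inhibitor, 6066 and 6083 in the mixture, 6070 and 5930 in miR3124_mimic and 5762 and 5669 in miR200b_mimic. They moved unequally, with VIM at 3894 and 3707 CPM in miRcontrol and 827 and 799 in miR3124_mimic, and FN1 at 3181 and 3347 in miRcontrol and 1444 and 1369 in miR200b_mimic. SPARC, at 649 and 653 CPM in miRcontrol, had 1540 and 1522 in miR3124_mimic and 1090 and 1051 in miR200b_mimic. Of 5 blood cell markers, CD68 alone was measurable, at 26.3 and 27.0 CPM in miRcontrol and 38.8 and 40.7 in miR92b_inhibitor. The 3 endothelial markers summed to at most 4.78 CPM, reached in miR3124_mimic, and the 4 adipocyte and liver markers to at most 0.239 CPM. The part of these differences in the results below was not tested.

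In miR92b_inhibitor, 27 of the 30 genes fell against miRcontrol and none rose. Over all genes tested, 18.2% fell and 17.5% rose in the same comparison. All 30 fold changes were negative, so that none rose at an unadjusted p under 0.05 in edgeR or with DESeq2 either, and 28 fell at the unadjusted level. The median log2 fold change was -0.70 over the 30 genes and -0.01 over all genes. The 30 genes together took 0.369% and 0.396% of the counts of the miRcontrol libraries, and 0.218% and 0.207% of those of miR92b_inhibitor. The genes that did not pass the test were PMVK (-0.01 ± 0.11, adjusted p = 0.940), HSD17B7 (-0.27 ± 0.12, adjusted p = 0.0701) and ACACA (-0.50 ± 0.25, adjusted p = 0.119). Both miR92b_inhibitor libraries lay below both miRcontrol libraries in 29 of the 30 genes, against 33.6% of all genes, and below all 6 libraries of miRcontrol and the single mimics in 27, against 13.7%. A fold change of at least 2 was reached by 5 genes, SCD, FADS2, STARD4, INSIG1 and SREBF1, a threshold that 1.91% of all genes passed in either direction.

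**Figure D1:**
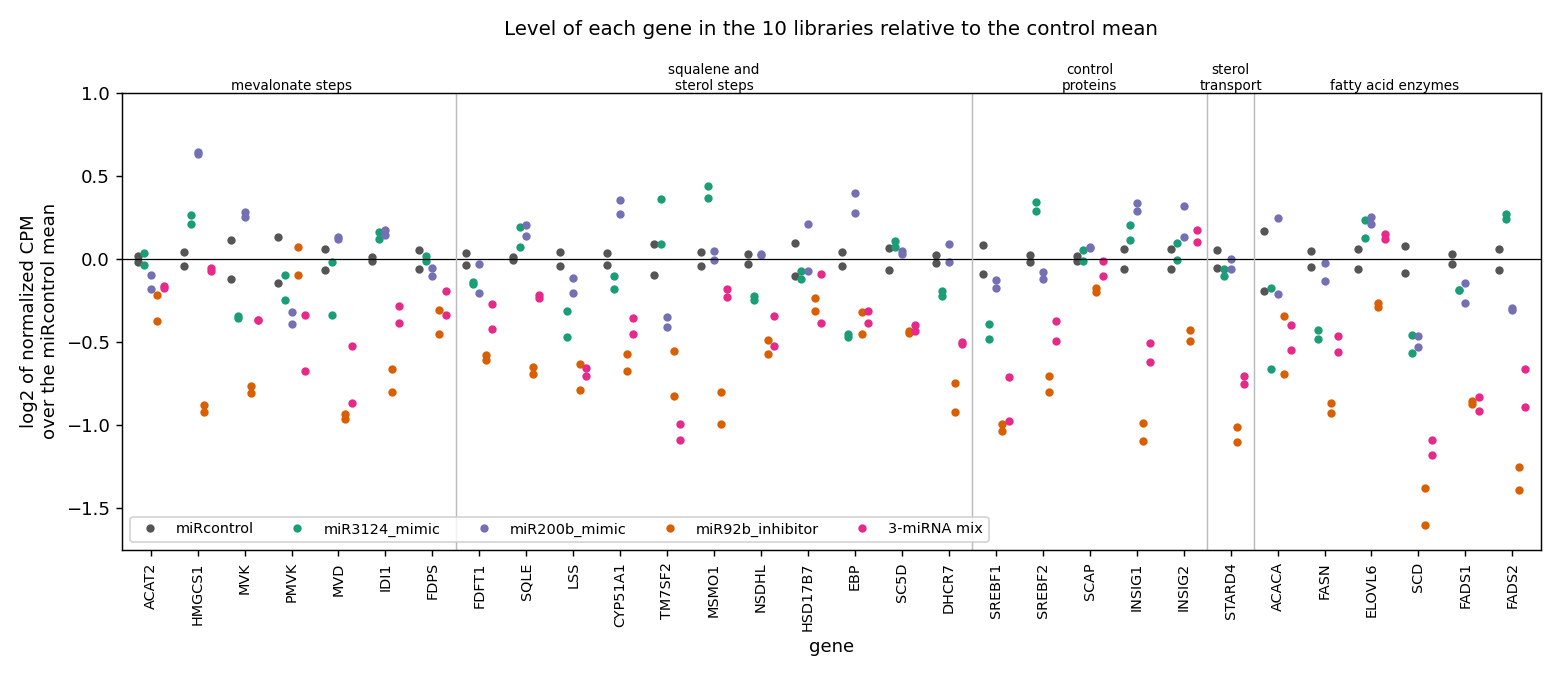
Level of each of the 30 genes in the 10 libraries. The x axis lists the genes by role, the y axis gives the log2 of the normalized CPM over the miRcontrol mean, and each point is 1 library, coloured by group. Both miR92b_inhibitor points lie below all points of miRcontrol, miR3124_mimic and miR200b_mimic for 27 genes, with SCD and FADS2 lowest.

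The plot of all libraries shows the spread within each pair. The miRcontrol libraries lay close together for most genes, and the widest relative gaps were in genes with few counts, such as ACACA and PMVK.

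Among the 6 fatty acid enzymes, 5 fell in miR92b_inhibitor, with a median log2 fold change of -0.88. SCD, the desaturase that makes oleate and palmitoleate, lies at chr10:100347124-100364834 (GRCh38, GENCODE v29) and had the largest change of the 30. It stood at 765 and 856 CPM in miRcontrol, 312 and 267 in miR92b_inhibitor, 381 and 358 in the mixture, 548 and 591 in miR3124_mimic and 588 and 560 in miR200b_mimic. All 4 other pairs lay below miRcontrol, and the miR92b_inhibitor pair was below the other 8 libraries. The log2 fold change in miR92b_inhibitor was -1.49 ± 0.048 (adjusted p = 2.7e-28), which is 2.80-fold lower. FADS2, which begins the desaturation of polyunsaturated fatty acids, stood at 173 and 188 CPM in miRcontrol, 75.7 and 68.7 in miR92b_inhibitor, 114 and 97.4 in the mixture, 213 and 218 in miR3124_mimic and 147 and 146 in miR200b_mimic. No pair overlapped another, with miR3124_mimic highest and miR92b_inhibitor lowest. FADS2 fell by 1.32 ± 0.054 on the log2 scale in miR92b_inhibitor (adjusted p = 2.53e-24), or 2.50-fold.

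FASN, the synthase that builds palmitate, had 667 and 713 CPM in miRcontrol, 379 and 362 in miR92b_inhibitor, 501 and 468 in the mixture, 495 and 513 in miR3124_mimic and 629 and 677 in miR200b_mimic. The miR200b_mimic pair overlapped miRcontrol, while the other pairs lay below both. Its log2 fold change in miR92b_inhibitor was -0.90 ± 0.040 (adjusted p = 5.66e-23). FADS1, the neighbour of FADS2 on chromosome 11, had 152 and 158 CPM in miRcontrol, 85.5 and 84.3 in miR92b_inhibitor, 87.0 and 82.1 in the mixture, 136 in both libraries of miR3124_mimic and 140 and 129 in miR200b_mimic. Here the inhibitor and mixed pairs overlapped each other and stood below the rest. FADS1 changed by -0.86 ± 0.047 in miR92b_inhibitor (adjusted p = 1.07e-19). The exons of FADS1 and FADS2 overlap on opposite strands over 4.79% of the exon bases of FADS1, and the strand setting of the counting is not stated. ELOVL6, which lengthens palmitate, fell less, by 0.28 ± 0.055 (adjusted p = 5.43e-05), from 79.3 and 73.2 CPM to 63.3 and 62.3 CPM. ACACA, the carboxylase that makes malonyl-CoA, had 2.98 and 3.82 CPM in miRcontrol and 2.10 and 2.68 CPM in miR92b_inhibitor. These pairs did not overlap, but the difference did not pass the test.

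All 5 control genes fell in miR92b_inhibitor, with a median log2 fold change of -0.75. INSIG1, the sterol-sensitive anchor and itself an SREBP target, stood at 96.0 and 104 CPM in miRcontrol, 50.5 and 46.9 in miR92b_inhibitor, 65.1 and 70.4 in the mixture, 108 and 115 in miR3124_mimic and 127 and 122 in miR200b_mimic. The pairs of both single mimics were above miRcontrol and those of the inhibitor and the mixture below it. INSIG1 changed by -1.04 ± 0.057 in miR92b_inhibitor (adjusted p = 1.03e-19). SREBF1, whose protein mainly drives fatty acid synthesis, had 88.4 and 99.7 CPM in miRcontrol, 45.8 and 47.1 in miR92b_inhibitor, 57.6 and 47.8 in the mixture, 67.3 and 71.6 in miR3124_mimic and 86.3 and 83.2 in miR200b_mimic. Every other pair was below miRcontrol, and the lower library of the mixed group was close to the inhibitor pair. SREBF1 changed by -1.02 ± 0.064 in miR92b_inhibitor (adjusted p = 1.51e-17).

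SREBF2, whose protein mainly drives cholesterol synthesis, had 177 and 182 CPM in miRcontrol, 110 and 103 in miR92b_inhibitor, 138 and 128 in the mixture, 219 and 228 in miR3124_mimic and 165 and 170 in miR200b_mimic. It was highest in miR3124_mimic and lowest in miR92b_inhibitor, with no overlap between any pairs. Its log2 fold change in miR92b_inhibitor was -0.75 ± 0.046 (adjusted p = 4.15e-18). INSIG2, the anchor that is not induced by the SREBPs, fell by 0.46 ± 0.088 (adjusted p = 4.01e-05), from 25.4 and 27.6 to 19.7 and 18.8 CPM. SCAP, the escort protein, changed least of the 5, by -0.19 ± 0.052 (adjusted p = 0.0038), from 79.0 and 80.7 to 70.7 and 69.6 CPM. STARD4, a carrier that moves cholesterol between membranes, stood at 59.0 and 54.7 CPM in miRcontrol, 26.5 and 28.1 in miR92b_inhibitor, 34.8 and 33.8 in the mixture, 54.6 and 52.9 in miR3124_mimic and 56.8 and 54.5 in miR200b_mimic. The single mimics differed little from miRcontrol, and the inhibitor and mixed pairs were well below it. STARD4 changed by -1.06 ± 0.067 in miR92b_inhibitor (adjusted p = 2.29e-17).

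Of the 7 genes of the mevalonate steps, 6 fell in miR92b_inhibitor, with a median log2 fold change of -0.73. HMGCS1, which makes HMG-CoA, had 84.5 and 89.5 CPM in miRcontrol, 47.4 and 46.0 in miR92b_inhibitor, 83.8 and 82.6 in the mixture, 100.5 and 105 in miR3124_mimic and 136 and 135 in miR200b_mimic. Both single mimics were above miRcontrol, the inhibitor was far below it, and the mixed pair was just under it. The log2 fold change of HMGCS1 in miR92b_inhibitor was -0.90 ± 0.054 (adjusted p = 3.25e-18). MVD, which makes isopentenyl pyrophosphate, went from 18.8 and 20.5 CPM to 10.3 and 10.1 CPM (-0.95 ± 0.12, adjusted p = 6.58e-09). MVK, the mevalonate kinase, went from 24.5 and 28.8 CPM to 15.2 and 15.7 CPM (-0.79 ± 0.092, adjusted p = 2.18e-09). IDI1, the isomerase of the isoprenoid units, went from 113 and 115 CPM to 71.8 and 65.4 CPM (-0.73 ± 0.051, adjusted p = 4.12e-16).

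The smaller falls of this branch were in FDPS, the farnesyl pyrophosphate synthase (-0.38 ± 0.054), and ACAT2, which joins acetyl-CoA units (-0.29 ± 0.047). Exons of other genes on the opposite strand cover 52.3% of the exon bases of ACAT2, 18.6% of those of FDPS, 15.0% of HMGCS1 and 14.8% of IDI1. PMVK, the kinase after MVK, had 17.1 and 14.1 CPM in miRcontrol and 16.3 and 14.6 CPM in miR92b_inhibitor, and these pairs overlapped.

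Of the 11 genes of the squalene and sterol steps, 10 fell in miR92b_inhibitor, with a median log2 fold change of -0.62. MSMO1, the sterol methyl oxidase, had 81.7 and 86.9 CPM in miRcontrol, 48.4 and 42.3 in miR92b_inhibitor, 74.3 and 71.8 in the mixture, 109 and 114 in miR3124_mimic and 87.3 and 83.9 in miR200b_mimic. It was highest in miR3124_mimic and lowest in miR92b_inhibitor. MSMO1 changed by -0.90 ± 0.059 in miR92b_inhibitor (adjusted p = 6.35e-17). DHCR7, a reductase at the end of the pathway, went from 104 and 101 CPM to 61.1 and 54.0 CPM (-0.83 ± 0.055, adjusted p = 5.91e-17). SQLE, the squalene epoxidase, went from 97.0 and 95.9 CPM to 61.5 and 59.7 CPM (-0.67 ± 0.052, adjusted p = 2.04e-14). FDFT1, which makes squalene, went from 208 and 218 CPM to 143 and 140 CPM (-0.59 ± 0.047, adjusted p = 4.27e-14). None of these 3 pairs overlapped miRcontrol.

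The remaining sterol enzymes that fell were LSS, the cyclase that makes lanosterol (-0.71 ± 0.10), the sterol reductase TM7SF2 (-0.69 ± 0.15), the lanosterol demethylase CYP51A1 (-0.62 ± 0.048), the decarboxylating dehydrogenase NSDHL (-0.53 ± 0.056), the sterol desaturase SC5D (-0.44 ± 0.070) and the sterol isomerase EBP (-0.39 ± 0.061). Exons of 2 other annotated genes on the same strand cover 79.4% of the exon bases of CYP51A1, so its counts are uncertain. HSD17B7, the ketoreductase that works beside NSDHL, had 13.3 and 15.3 CPM in miRcontrol and 12.2 and 11.6 CPM in miR92b_inhibitor. These pairs did not overlap, but the difference did not pass the test. By role, then, each branch fell in miR92b_inhibitor, and the level that remained of the miRcontrol sum was 69.4% for the mevalonate steps, 64.8% for the sterol steps, 60.6% for the control proteins and 46.1% for the fatty acid enzymes.

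**Figure D2:**
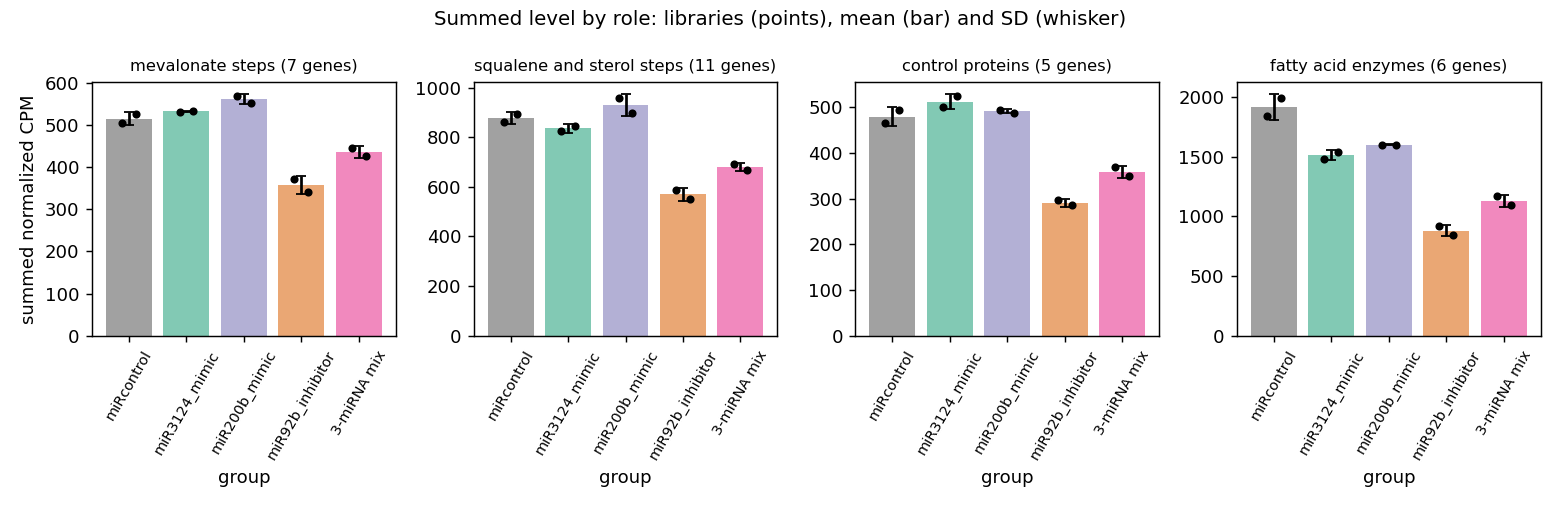
Summed level of the genes of each role. The x axis of each panel gives the group, the y axis the sum of normalized CPM from 0, bars are means of 2 libraries, whiskers the SD and points the libraries. In all 4 panels miR92b_inhibitor is lowest, followed by the 3-miRNA mix, and the fatty acid enzymes go from 1916 CPM in miRcontrol to 882 CPM in miR92b_inhibitor.

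The plot of summed levels is weighted to abundant genes. SCD and FASN made up most of the fatty acid sum, which was 1916 ± 108 CPM in miRcontrol, 882 ± 49.2 in miR92b_inhibitor, 1130 ± 53.4 in the mixture, 1514 ± 41.1 in miR3124_mimic and 1601 ± 3.01 in miR200b_mimic (SD, n = 2). The sum of the control proteins was 480 ± 20.2 CPM in miRcontrol, 291 ± 8.13 in miR92b_inhibitor, 359 ± 13.1 in the mixture, 513 ± 15.7 in miR3124_mimic and 492 ± 4.62 in miR200b_mimic. Both single mimics had means above miRcontrol for the control proteins and below it for the fatty acid enzymes. For the control proteins, the miR200b_mimic libraries (495 and 488 CPM) overlapped those of miRcontrol (466 and 494 CPM).

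The difference between miR92b_inhibitor and the single mimics was tested directly, a comparison added after the data had been seen. Against miR3124_mimic, 26 of the 30 genes were lower in miR92b_inhibitor and none higher, also at an unadjusted p under 0.05 in edgeR (29.5% of all genes lower, 29.4% higher), with a median log2 difference of -0.52. FADS2 (-1.58), MSMO1 (-1.30), INSIG1 (-1.20), HMGCS1 (-1.14) and SREBF2 (-1.07) differed most. EBP (0.08, adjusted p = 0.31) and PMVK (0.16, adjusted p = 0.24) did not pass, nor did HSD17B7 and ACACA. Against miR200b_mimic, 27 genes were lower and 1, PMVK (0.35, adjusted p = 0.015), was higher (25.6% of all genes lower, 24.8% higher), with a median of -0.70. HMGCS1 (-1.54), INSIG1 (-1.35), MVD (-1.07) and MVK (-1.05) had the largest differences there. These 3 comparisons of miR92b_inhibitor share its libraries and are not independent of each other.

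When the 3 agents were given together, 24 of the 30 genes fell against miRcontrol and 1, ELOVL6, rose, while 21.1% of all genes fell and 21.5% rose. The 30 genes had a median change of -0.42 on the log2 scale. The 30 genes took 0.272% and 0.258% of the counts of its libraries. Its libraries lay below all 6 libraries of miRcontrol and the single mimics in 21 genes (7.56% of all genes) and above them in none (8.62%). For 25 genes, the mean of the mixed group was above that of miR92b_inhibitor and below that of miRcontrol, as for 14.6% of all genes (30.9% counting either order).

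SCD fell by 1.13 ± 0.047 on the log2 scale in the mixed group (adjusted p = 7.41e-25) and TM7SF2 by 1.04 ± 0.16 (adjusted p = 3e-07), and these 2 genes reached a fold change of 2, as did 4.67% of all genes in either direction. TM7SF2 had 8.81 and 10.0 CPM in miRcontrol, 6.42 and 5.31 in miR92b_inhibitor, 4.42 and 4.74 in the mixture, 12.1 and 10.0 in miR3124_mimic and 7.40 and 7.08 in miR200b_mimic. It was lowest in the mixture. FADS1 (-0.87 ± 0.047), SREBF1 (-0.84 ± 0.062), FADS2 (-0.77 ± 0.051) and STARD4 (-0.73 ± 0.065) followed.

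By role, 6 of 7 mevalonate genes fell in the mixture (median -0.33), 10 of 11 sterol genes (median -0.40), 3 of 5 control genes (median -0.43), STARD4 and 4 of 6 fatty acid enzymes (median -0.64). HMGCS1 (-0.06 ± 0.049, adjusted p = 0.317), SCAP (-0.05 ± 0.051, adjusted p = 0.422) and INSIG2 (0.14 ± 0.082, adjusted p = 0.183) did not pass, nor did HSD17B7 and ACACA. PMVK, which was near the control in miR92b_inhibitor, had 12.3 and 9.74 CPM in the mixture, below both miRcontrol libraries (-0.50 ± 0.12, adjusted p = 0.000534). This fall of PMVK depended on single libraries. It shrank to -0.35 without the first miRcontrol library and to -0.34 without the second library of the mixture. ELOVL6 had 82.8 and 84.8 CPM in the mixture against 79.3 and 73.2 in miRcontrol (0.14 ± 0.053, adjusted p = 0.0337). This rise was lost with DESeq2 (adjusted p = 0.113), with no filter on low counts (adjusted p = 0.0626), and without the second miRcontrol library or either library of the mixture, when the count of risen genes was 0.

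**Figure D3:**
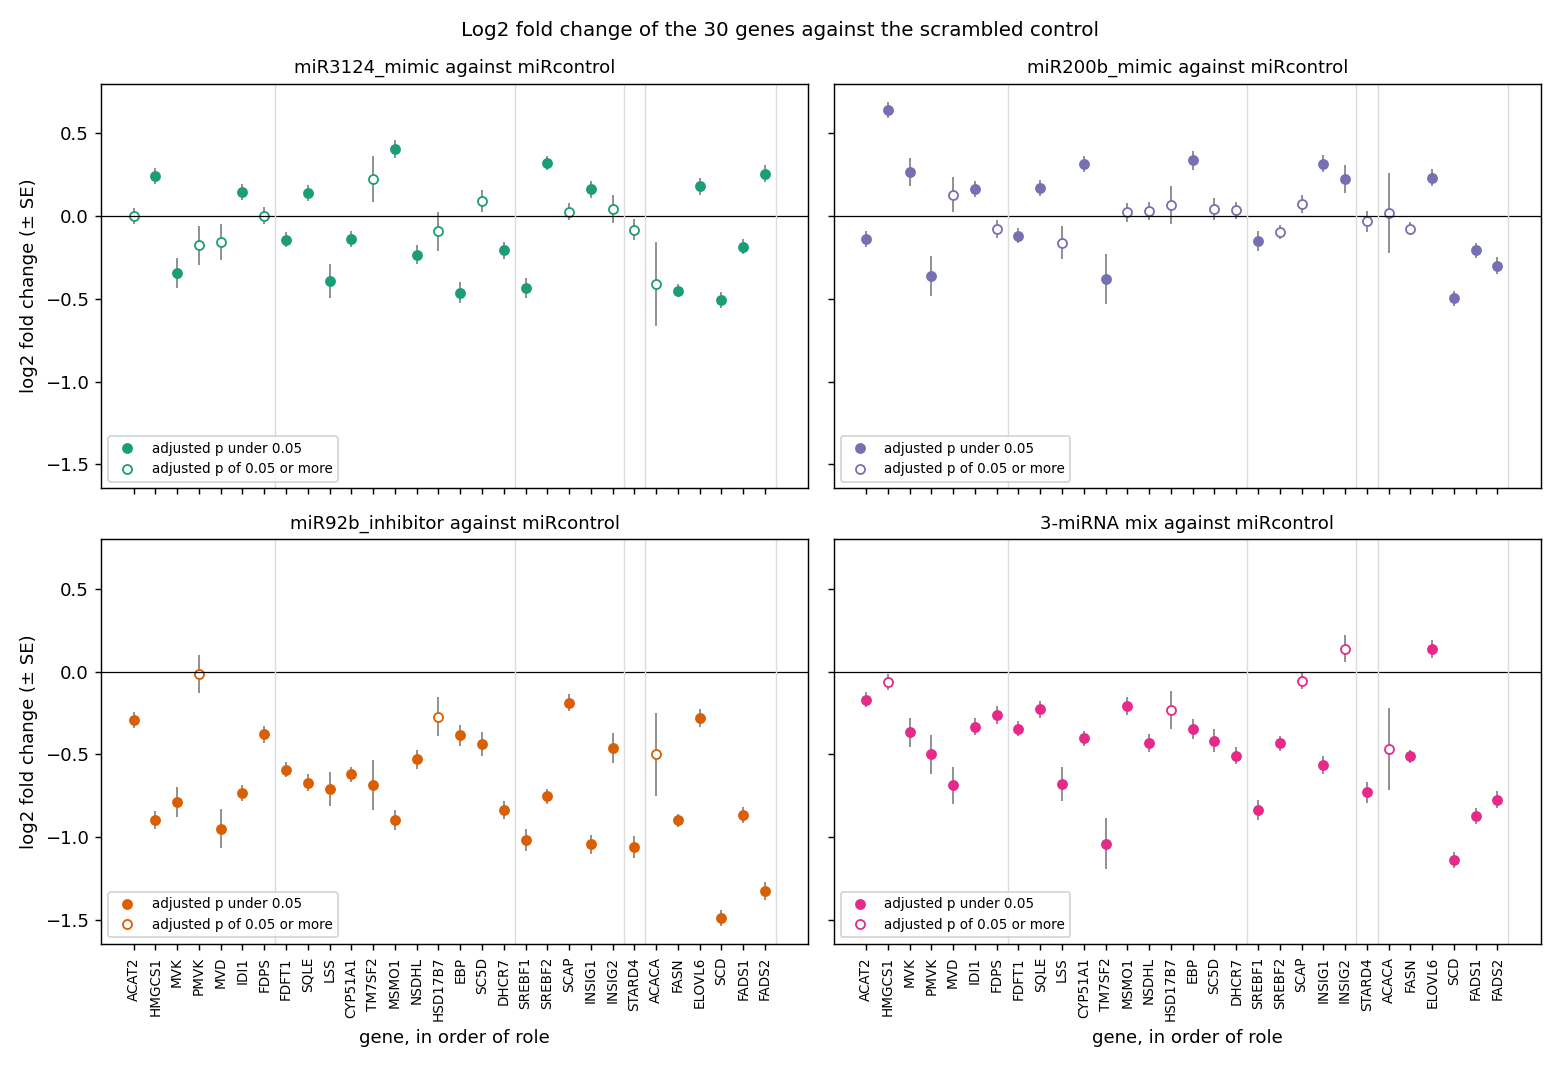
Log2 fold change of the 30 genes against miRcontrol in the 4 other groups. The x axis lists the genes by role, the y axis gives the log2 fold change with its standard error as whiskers, and filled points passed an adjusted p of 0.05. In miR92b_inhibitor all 30 points lie below 0, in the mix 28 do, and in the single mimics the genes lie on both sides of 0.

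The plot of fold changes shows the shallower profile of the mixture. Against miR92b_inhibitor itself, 19 of the 30 genes were higher in the mixed group (19.7% of all genes) and 1, PMVK, was lower (19.9%), with a median log2 difference of 0.25. HMGCS1 (0.83 ± 0.054, adjusted p = 1.01e-17), MSMO1 (0.69 ± 0.060, adjusted p = 1.77e-13), INSIG2 (0.60 ± 0.086, adjusted p = 1.43e-07) and FADS2 (0.55 ± 0.057, adjusted p = 3.73e-11) differed most. FADS1 (-0.01 ± 0.050), SC5D (0.02 ± 0.072) and LSS (0.03 ± 0.11) did not pass. PMVK (-0.49 ± 0.12, adjusted p = 0.000853) lost its lower call without the second library of the mixture. The mixed group was also compared with the mimics. It was lower than miR3124_mimic in 22 genes and higher in none (23.8% and 25.3% of all genes), with a median of -0.30. It was lower than miR200b_mimic in 24 and higher in none (20.4% and 18.2%), with a median of -0.48. In both comparisons 0 genes were higher at an unadjusted p under 0.05 in edgeR and with DESeq2 as well. TM7SF2 (-1.26) and FADS2 (-1.03) differed most from miR3124_mimic, and INSIG1 (-0.88) and MVD (-0.81) from miR200b_mimic.

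The change in the mixed group was also set against the sum of the 3 single changes on the log2 scale, as the same model estimates it. The mixture lay above that sum in 12 of the 30 genes and below it in none, against 11.7% and 10.1% of all genes, with a median difference of 0.26. At an unadjusted p under 0.05 in edgeR it lay above in 13 and below in 0, and with DESeq2 above in 8 and below in 0. For SCD the single changes summed to -2.49 and the mixture gave -1.13, a difference of 1.36 ± 0.093 (adjusted p = 6.14e-16), and SCD was the only gene of the 30 with a difference of at least 2-fold (3.07% of all genes in either direction). For FASN the sum was -1.43 and the mixture -0.51, a difference of 0.92 ± 0.078 (adjusted p = 6.21e-13). For SREBF1 the sum was -1.60 and the mixture -0.84, a difference of 0.77 ± 0.12 (adjusted p = 4.69e-06). FADS2 (0.60 ± 0.10), LSS (0.59 ± 0.21), FDFT1 (0.51 ± 0.093), DHCR7 (0.50 ± 0.11), MVK (0.50 ± 0.18), STARD4 (0.45 ± 0.13), FADS1 (0.39 ± 0.093), NSDHL (0.31 ± 0.11) and ACAT2 (0.26 ± 0.093) also differed. For INSIG1 the sum was -0.57 and the mixture -0.56, and for HMGCS1 -0.02 and -0.06. The 3 single changes share the miRcontrol libraries, so an offset of these libraries from all other groups enters the sum with each of them. The amounts in the mixture are also not stated. Such an offset, a smaller dose of each agent and a joint action of the agents cannot be told apart.

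In miR3124_mimic the 30 genes moved in both directions. Against miRcontrol, 8 rose and 11 fell, while 25.7% of all genes rose and 25.3% fell, and the median log2 fold change was -0.09. MSMO1 rose by 0.40 ± 0.053 (adjusted p = 8.63e-09), SREBF2 by 0.32 ± 0.043 (adjusted p = 1.87e-08), FADS2 by 0.25 ± 0.049 (adjusted p = 1.67e-05) and HMGCS1 by 0.24 ± 0.049 (adjusted p = 5.54e-05). ELOVL6, INSIG1, IDI1 and SQLE rose by 0.14 to 0.18. SCD changed by -0.51 ± 0.046 (adjusted p = 4.07e-13), EBP by -0.46 ± 0.063 (adjusted p = 2.03e-08), FASN by -0.45 ± 0.039 (adjusted p = 9.72e-14) and SREBF1 by -0.43 ± 0.061 (adjusted p = 4.73e-08). EBP had 61.1 and 64.6 CPM in miRcontrol and 45.9 and 45.3 in miR3124_mimic, and it was the only gene of the 30 with its lowest mean in this group. Smaller falls were in LSS, MVK, NSDHL, DHCR7, FADS1, FDFT1 and CYP51A1, from -0.39 to -0.14. The count of risen genes was 5 without the first miRcontrol library or without the second miR3124_mimic library.

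The SREBP genes went opposite ways in miR3124_mimic, with SREBF2 higher and SREBF1 lower than miRcontrol, and neither pair overlapped the control. The desaturases FADS2 and SCD also went opposite ways. By role, 2 of 7 mevalonate genes rose and 1 fell, 2 of 11 sterol genes rose and 6 fell, 2 of 5 control genes rose and 1 fell, and 2 of 6 fatty acid enzymes rose and 3 fell, beside 25.7% risen and 25.3% fallen of all genes.

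In miR200b_mimic, 9 of the 30 genes rose and 8 fell, against 21.4% and 19.1% of all genes, and the median log2 fold change was 0.02. HMGCS1 rose most, by 0.64 ± 0.048 (adjusted p = 1.31e-15), and its pair of 136 and 135 CPM was above all other libraries. EBP rose by 0.33 ± 0.058 (adjusted p = 5.56e-06), to 82.9 and 76.1 CPM. INSIG1 (0.31 ± 0.051, adjusted p = 1.62e-06) and CYP51A1 (0.31 ± 0.045, adjusted p = 1.55e-07) rose alike, and MVK, ELOVL6, INSIG2, SQLE and IDI1 by 0.16 to 0.27. SCD changed by -0.50 ± 0.046 (adjusted p = 1.36e-12) and was the gene with the largest fall. TM7SF2 (-0.38 ± 0.15), PMVK (-0.36 ± 0.12), FADS2 (-0.30 ± 0.051), FADS1 (-0.21 ± 0.046), SREBF1 (-0.15 ± 0.060), ACAT2 (-0.14 ± 0.047) and FDFT1 (-0.12 ± 0.047) also fell. With DESeq2 only 3 genes fell, and without the second miRcontrol library or the second miR200b_mimic library 4 did.

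Compared with each other, a comparison added after the data had been seen, miR3124_mimic was lower than miR200b_mimic in 10 of the 30 genes and higher in 5 (29.9% and 27.9% of all genes). EBP (-0.80) and MVK (-0.61) were lower, and TM7SF2 (0.60), FADS2 (0.56) and SREBF2 (0.42) higher. SCD differed by -0.01 (adjusted p = 0.88).

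Over the 4 comparisons with miRcontrol, which share its libraries, 4 genes fell in all of them (FDFT1, SREBF1, SCD and FADS1) and 10 fell in 3, against 2.54% and 8.53% of all genes. Of the 4, FDFT1 and SREBF1 did not pass in miR200b_mimic with DESeq2 (adjusted p = 0.113 and 0.164), and the FDFT1 pair there overlapped miRcontrol. Of the 10, ACAT2 and TM7SF2 did not pass in miR200b_mimic with DESeq2 (adjusted p = 0.055 and 0.158). In 12 genes the calls went in both directions (21.8% of all genes). HSD17B7 and ACACA passed in none of the 4, and the share of all genes that passed in none was not computed. The lowest mean of the 5 groups was in miR92b_inhibitor for 26 genes (21.8% of all genes), in the mixture for 3 (PMVK, TM7SF2 and FADS1, against 11.5%) and in miR3124_mimic for 1 (EBP, against 28.9%). The highest mean was in miR200b_mimic for 15 genes (22.6% of all genes), in miRcontrol for 8 (14.8%) and in miR3124_mimic for 7 (29.8%).

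Genes around the 30 were read from 5 further lists, chosen by function. The counts of these lists stand beside shares of all genes of 17.5% risen and 18.2% fallen in miR92b_inhibitor, 21.5% and 21.1% in the mixture, 25.7% and 25.3% in miR3124_mimic, and 21.4% and 19.1% in miR200b_mimic. Of 21 other fatty acid genes, 10 fell and 2 rose in miR92b_inhibitor (18.2% and 17.5% of all genes). They include genes for acetyl-CoA supply and for the synthesis, elongation, desaturation, activation and esterification of fatty acids. LPIN1, a phosphatidate phosphatase, changed by -0.55 ± 0.054, and SCD5, a second stearoyl desaturase, by -0.49 ± 0.080. In miR200b_mimic the same list had 7 risen and 2 fallen genes, among them the elongase ELOVL7 (2.51 ± 0.24) and the acyl-CoA ligase ACSL5 (0.94 ± 0.23). In miR3124_mimic 5 rose and 7 fell (25.7% and 25.3% of all genes), with ACSL5 at 1.24 ± 0.22 and the mitochondrial transacylase MCAT at -1.20 ± 0.13. In the mixture 6 rose and 10 fell, with ELOVL7 at 2.21 ± 0.24. At least 2 genes of this list rose in every group.

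Of 9 genes of other isoprenoid branches, which use farnesyl pyrophosphate for other products than sterols, 1 rose and none fell in miR92b_inhibitor (2 and 0 at an unadjusted p under 0.05 in edgeR). The gene that rose was FNTA, a subunit of the protein prenyltransferases (0.19 ± 0.061, adjusted p = 0.0103). In the other groups this list had 4 risen and 3 fallen genes (miR3124_mimic), 3 and 2 (miR200b_mimic) and 3 and 2 (mixture). FNTB, the partner of FNTA in farnesyltransferase, fell in those 3 groups, by 0.55, 0.44 and 0.54 on the log2 scale.

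Of 8 genes for SREBP cleavage and sterol-regulated degradation, 3 fell and 2 rose in miR92b_inhibitor (18.2% and 17.5% of all genes). MBTPS1, the protease that first cuts the SREBPs, changed by -0.31 ± 0.061 and PAQR3, which tethers SCAP to the Golgi, by 0.32 ± 0.081. MBTPS2, the protease of the subsequent cut, changed by -1.13 ± 0.076 in miR200b_mimic (adjusted p = 3.21e-17), where 4 of the 8 fell and 0 rose (19.1% and 21.4% of all genes), the latter also at an unadjusted p under 0.05. In miR3124_mimic also 4 fell and 0 rose (25.3% and 25.7% of all genes), again with 0 at the unadjusted level, with TMEM97 at -0.41 ± 0.062. In the mixture 5 fell and 1 rose.

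Of 12 genes for sterol uptake, storage and transfer, 5 rose and 3 fell in miR92b_inhibitor (17.5% and 18.2% of all genes). NPC1, which exports cholesterol from lysosomes, rose by 0.46 ± 0.041 (adjusted p = 1.2e-12), and the lipoprotein receptor SCARB1 changed by -0.35 ± 0.061. SOAT1, which esterifies cholesterol for storage, changed by -1.54 ± 0.046 in miR3124_mimic (adjusted p = 1.25e-30) and by -1.01 ± 0.043 in the mixture. GRAMD1B, a carrier of cholesterol from the plasma membrane, rose by 0.86 ± 0.053 in miR200b_mimic and by 0.92 ± 0.052 in the mixture. This list had 4 risen and 4 fallen genes in miR3124_mimic, 4 and 3 in miR200b_mimic and 5 and 5 in the mixture.

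The liver X receptors sense oxysterols and switch on sterol export. Of 8 genes on their side, 7 were tested, and 2 rose and 2 fell in miR92b_inhibitor (17.5% and 18.2% of all genes), including LPCAT3, a phospholipid acyltransferase (-0.71 ± 0.090), and CYP27A1, a sterol hydroxylase (-0.66 ± 0.15). In miR200b_mimic 4 rose and none fell (5 and 0 at an unadjusted p under 0.05, and 21.4% and 19.1% of all genes), with the exporter ABCA1 at 0.83 ± 0.095 and the ubiquitin ligase MYLIP at 0.59 ± 0.15. MYLIP also rose in miR3124_mimic (1.28 ± 0.14) and in the mixture (0.92 ± 0.14), where the list had 4 risen genes and 1 fallen in either group.

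**Figure D4:**
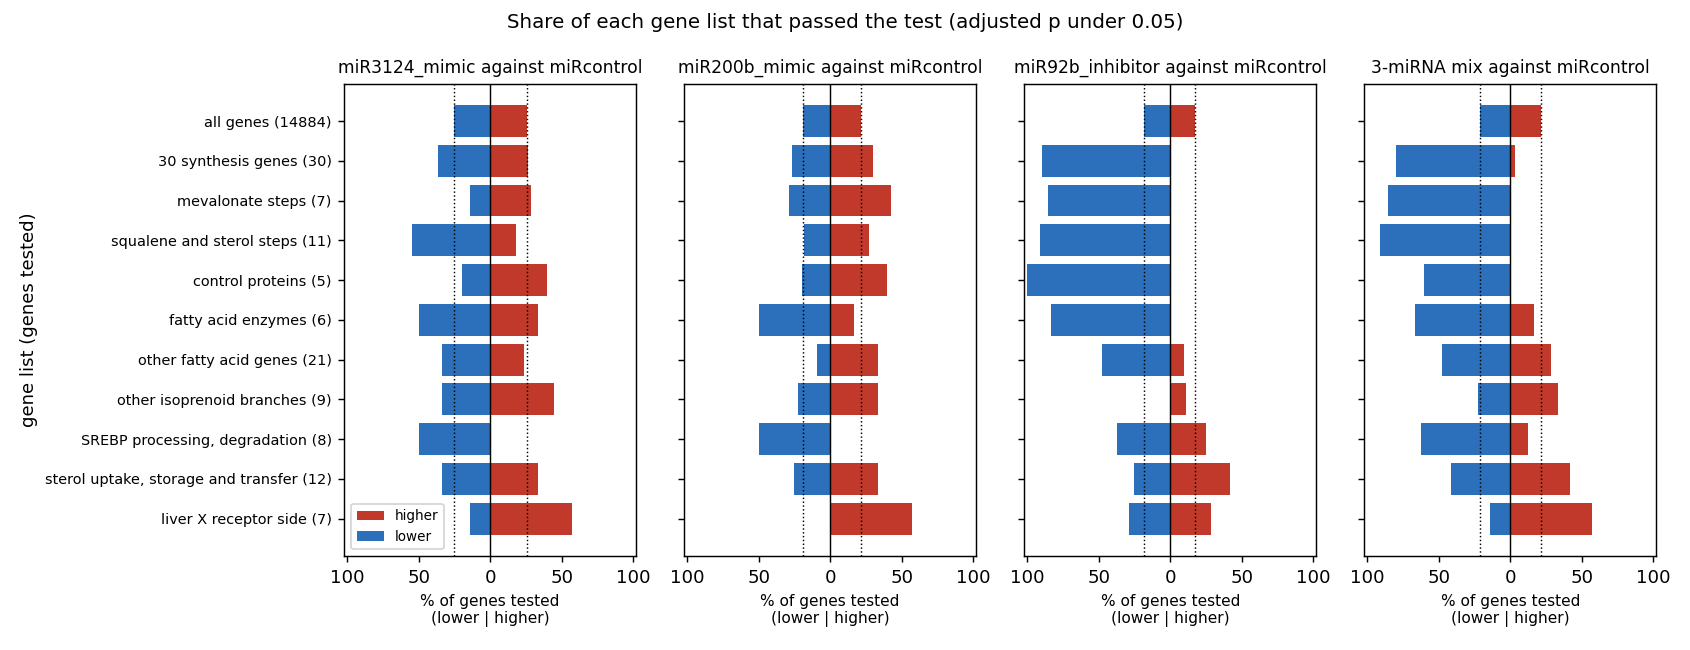
Share of each gene list that passed the test. The y axis lists the gene lists with the number of genes tested, the x axis gives the percent of those genes that fell (left) or rose (right), each panel is 1 group against miRcontrol, and dotted lines mark the share of all genes. In miR92b_inhibitor the bars of the 30 genes and of 4 of their roles extend to the left only. The bar of other isoprenoid branches extends to the right only, and the remaining bars straddle 0.

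The plot of list shares shows 27 of the 30 genes lower in miR92b_inhibitor against 18.2% of all genes. In the same panel 10 of 21 other fatty acid genes fell, 5 of 12 genes for sterol uptake, storage and transfer rose and 3 of 8 for SREBP cleavage fell, and whether these lists differ from the 30 genes was not tested.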

How the data were processed

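mRNA from 10 BEAS2B libraries was sequenced by the authors after poly(A) selection with a directional kit. Per the study's methods and processing notes, reads were checked with FastQC, trimmed with FASTX_Trimmer and BBMap, aligned with TopHat to GRCh38 and counted by gene. The values the authors deposited are unnormalized counts, and the counting tool, annotation and strand setting are not given in the sources used here. Counts of repeated symbols (5771 of 58173 entries) were summed. Counts were tested with edgeR 4.0.16 in R 4.3.3 (filterByExpr, RLE normalization with factors from 0.985 to 1.016, all 10 libraries in 1 quasi-likelihood fit without covariates), with Benjamini-Hochberg adjustment over 14884 genes and a threshold of 0.05, and separately a fold change of at least 2. Standard errors were derived from the F statistic. The common dispersion was 0.000751, and precision is limited by 2 libraries per group. The scripts were tested on simulated counts. The libraries of a pair differed by more than counting error (chi-square per degree of freedom from 1.76 to 2.67). Alternatives were TMM, library totals, DESeq2 1.42.0, edgeR's exact test, only the groups compared, no filter, a minimum of 10 counts per library, the replicate number as a block, and each library left out in turn. All 30 genes are named, and from each further list the 2 called genes with the largest change and a mean of at least 1 CPM could be named. The genes, lists and tests were chosen with earlier results of these data known. Some genes of the pathways are not analysed here.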

Additional observations from a re-analysis of the deposited data

How the results depend on the processing

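Of 216 recomputed counts of risen or fallen genes, 193 stayed within 1.5 times the reported count, and of 1440 recomputed fold changes of single genes, 1359 kept their direction and side of the threshold. In miR92b_inhibitor the count of fallen genes was 27 with TMM, library totals, DESeq2, the exact test and the replicate block, and 27 to 28 when 1 library was left out. Same-numbered libraries shared little deviation, with correlations between -0.0365 and 0.0445 over 12900 genes. Counting error is part of each deviation and lowers such correlations, so a small shared effect could be missed. The replicate block changed no count, with 24 fallen in the mixed group, 8 risen and 11 fallen in miR3124_mimic, and 9 and 8 in miR200b_mimic. With DESeq2, 7 genes rose and 3 fell in miR200b_mimic, and 6 rose and 11 fell in miR3124_mimic. The rises of MVK and INSIG2 in miR200b_mimic and of IDI1 and SQLE in miR3124_mimic did not pass with it. With DESeq2 or with no filter on low counts, 0 genes rose in the mixed group. Under a fold change of 2 with an unadjusted p under 0.05, 5 genes fell in miR92b_inhibitor, 2 fell and 0 rose in the mixed group, and 0 rose or fell in either single mimic. By the same rule the mixed group was lower than miR3124_mimic in 2 genes, lower than miR200b_mimic in 0, above or below miR92b_inhibitor in 0, and above the sum of single changes in 1. Shares of all genes were not computed for this rule. With the adjusted p instead, 1210 of 14884 genes passed in either direction in miR3124_mimic and 727 in miR200b_mimic. For the mixed group, 934 genes passed against miR3124_mimic, 512 against miR200b_mimic and 620 against miR92b_inhibitor.

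With 1 library left out, the remaining library of that group was assumed to vary like the other groups. This gave 5 to 7 risen and 8 to 12 fallen genes in miR3124_mimic, 7 to 9 and 4 to 8 in miR200b_mimic, and 0 to 1 and 22 to 25 in the mixed group. The mixed group was then lower than miR200b_mimic in 22 to 25 genes and lower than miR3124_mimic in 18 to 22. It was higher than miR92b_inhibitor in 16 to 21 and lower in 0 to 1, and above the sum in 8 to 12. The median over the 30 genes in miR200b_mimic ranged from -0.0221 to 0.0600. Small changes that missed the threshold turned direction. In miR3124_mimic, FDPS was at -0.0049 with TMM, -0.0037 with only the groups compared and -0.0044 with no filter, and ACAT2 at 0.0253 with library totals and 0.016 with at least 10 counts in every library. With 1 library left out, FDPS ranged from -0.0577 to 0.0547 there, ACAT2 from -0.0359 to 0.0325, HSD17B7 from -0.1941 to 0.0057, SCAP from -0.0125 to 0.0531 and INSIG2 from -0.018 to 0.101. In miR200b_mimic, MSMO1 ranged from -0.0212 to 0.0648, HSD17B7 from -0.0694 to 0.2144, SC5D from -0.023 to 0.1069, DHCR7 from -0.0173 to 0.092, STARD4 from -0.0875 to 0.0251 and ACACA from -0.2072 to 0.2526. In miR92b_inhibitor, PMVK ranged from -0.1456 to 0.132. The cause was not tested in any of these. The exact test and the fit of only the groups compared were not run for the sum of single changes, and no alternative was run for the 3 comparisons between single-agent groups. With 2 libraries per group, genes with few counts, such as ACACA and TM7SF2, had the widest errors.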
